A study of Mus musculus with 2 samples.

Results

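The messenger RNAs of 10 regulators of alternative splicing in muscle were followed in total RNA-seq libraries of mouse gastrocnemius, a calf muscle of mostly fast fibres. The genes were taken by symbol from 55536 genes in the table, as Mbnl1, Mbnl2, Celf1, Celf2, Rbfox1, Rbfox2, Rbm20, Rbm24, Ptbp1 and Srpk3, and all 10 were found. The libraries came from female mice of strain B6CASTF1/J, the F1 hybrid of CAST/EiJ and C57BL/6J parents, with no treatment or engineered allele named. One label field puts them at 18 to 20 months of age, while the field for age was left without a value. They are biological replicates 2 and 1 of 1 group, each made from 300 ng of RNA with ERCC spike-ins. A single donor identifier, which names the strain, is shared by both. That the tissues came from different animals rests on their sample labels, so the spread may be partly technical. With 1 group there was no comparison of conditions. The values describe the levels, the transcripts and the spread between libraries.

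Alternative splicing joins different exons of one gene into different messenger RNAs, and RNA-binding proteins decide which exons are kept. In striated muscle the MBNL proteins favour adult splicing patterns, and the CELF proteins oppose them on many shared targets. The balance of these families shifts after birth and is disturbed in myotonic dystrophy, in which MBNL proteins are trapped on expanded repeat RNA. RBFOX proteins bind the element UGCAUG near muscle exons, RBM20 represses exons of titin, RBM24 promotes inclusion of muscle exons, and PTBP1 represses many of them outside muscle. SRPK3 is a muscle kinase of serine- and arginine-rich (SR) splicing factors, and its gene is a known target of the MEF2 transcription factors.

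The regulators of the MBNL, RBFOX and PTBP families share alternative coding exons of equal length between paralogs. These exons are printed because the transcript results below turn on whether a transcript holds them. They were read from GENCODE M21 transcripts (GRCm38/mm10, the annotation of the files), 5′ to 3′ on the strand of the gene, and capitals mark the bases that differ between the paralogs. The MBNL pair follows first, with exons of 54, 36 and 95 bases:
Mbnl1 54-base exon, chr3:60614683-60614736, plus strand: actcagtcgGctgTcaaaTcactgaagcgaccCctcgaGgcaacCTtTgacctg
Mbnl2 54-base exon, chr14:120395712-120395765, plus strand: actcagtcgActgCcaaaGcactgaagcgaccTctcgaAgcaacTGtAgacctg
Mbnl1 36-base exon, chr3:60621423-60621458, plus strand: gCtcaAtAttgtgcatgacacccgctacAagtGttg
Mbnl2 36-base exon, chr14:120403336-120403371, plus strand: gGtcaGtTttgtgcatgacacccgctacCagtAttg
Mbnl1 95-base exon, chr3:60622146-60622240, plus strand: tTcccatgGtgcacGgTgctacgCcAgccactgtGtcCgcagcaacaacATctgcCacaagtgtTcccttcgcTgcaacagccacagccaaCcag
Mbnl2 95-base exon, chr14:120404638-120404732, plus strand: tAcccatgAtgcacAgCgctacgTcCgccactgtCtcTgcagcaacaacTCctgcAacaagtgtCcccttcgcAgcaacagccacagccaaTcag

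The RBFOX genes each hold a 40-base and a 43-base exon, known in mouse as the brain-type and the muscle-type exon of this family. Ptbp1 shares a 34-base exon with its paralog Ptbp2:
Rbfox1 40-base exon, chr16:7363865-7363904, plus strand: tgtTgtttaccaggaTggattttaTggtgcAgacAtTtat
Rbfox2 40-base exon, chr15:77094451-77094490, minus strand: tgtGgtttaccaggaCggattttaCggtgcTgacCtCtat
Rbfox1 43-base exon, chr16:7369801-7369843, plus strand: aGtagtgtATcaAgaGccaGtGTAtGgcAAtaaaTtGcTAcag
Rbfox2 43-base exon, chr15:77091812-77091854, minus strand: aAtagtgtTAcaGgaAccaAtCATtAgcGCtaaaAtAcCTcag
Ptbp1 34-base exon, chr10:79862014-79862047, plus strand: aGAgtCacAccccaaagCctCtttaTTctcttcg
Ptbp2 34-base exon, chr3:119724612-119724645, minus strand: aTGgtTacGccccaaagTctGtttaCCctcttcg

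The paralogous exons were 85.2% identical at 54 bases, 86.1% at 36 bases and 85.3% at 95 bases in the MBNL pair. In the RBFOX pair the 40-base exons were 85.0% identical and the 43-base exons 62.8%, with 16 differing bases. The 34-base exons of Ptbp1 and Ptbp2 were 76.5% identical. The exons of 54 and 36 bases are whole multiples of 3 bases, so a transcript keeps its reading frame with or without them. Those of 95, 40, 43 and 34 bases are not. The letters TGCATG, the DNA form of the RBFOX element, occur in both 36-base MBNL exons and in none of the other printed exons, searched on the strand of the gene. Of all 468 internal coding exons of 36 bases in the annotation, 6 (1.28%) hold these letters.

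All 10 regulators reached at least 1 TPM in each library, where TPM is a transcript's share of all transcripts after division by its length, as estimated by RSEM. Their summed level was 663.3 TPM in replicate 2 and 819.8 TPM in replicate 1 (742 ± 111 TPM, SD, n = 2). The MBNL pair took the largest part of it. In whole muscle, fewer cells of a type and less RNA per cell cannot be told apart. The tissue label matched its markers by their sums. The 10 fast fibre genes came to 85678 TPM in replicate 2 and 92394 TPM in replicate 1. The 10 slow fibre genes came to 2596 TPM in replicate 2 and 507 TPM in replicate 1. Every gene of both lists was at or above 1 TPM, so that threshold does not separate them. Several of the regulators are also made in neurons, and neuron markers were at or near 0. Each of the 8 neuron genes was below 1 TPM, 3 of them had no count in either library, and Stmn2 alone gave 0.95 TPM of the summed 1.03 TPM in both.

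**Figure D1:**
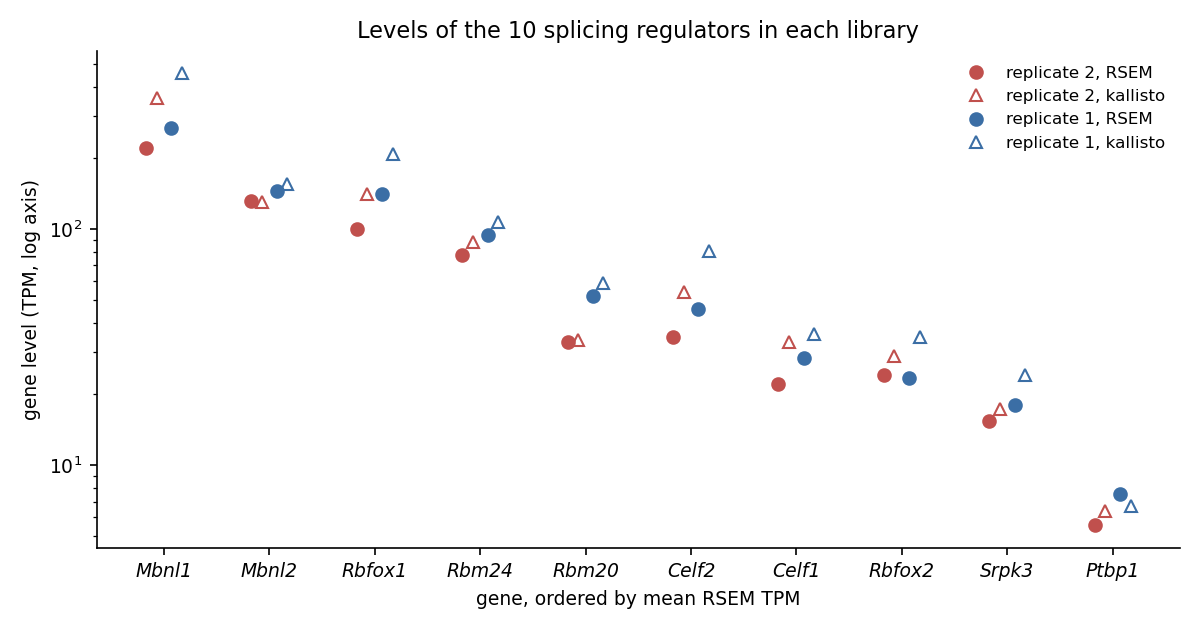
Level of each regulator in TPM (log axis) in replicate 2 (red) and replicate 1 (blue), by RSEM (filled circles) and kallisto (open triangles). Mbnl1 lies highest, at 219.4 TPM in replicate 2 and 266.5 TPM in replicate 1 by RSEM, and Ptbp1 lowest, at 5.56 TPM in replicate 2 and 7.51 TPM in replicate 1.

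Mbnl1 (ENSMUSG00000027763.13, chromosome 3, 60472830 to 60629750, plus strand) encodes the founding muscleblind protein of muscle. It was at 219.4 TPM in replicate 2 and 266.5 TPM in replicate 1, a mean of 243 ± 33.3 TPM. This put it at percentile 97.9 of the 10002 protein-coding genes at or above 1 TPM in both libraries. Mbnl2 (ENSMUSG00000022139.17, chromosome 14, 120275669 to 120431697, plus strand), its paralog, was at 131.5 TPM in replicate 2 and 144.9 TPM in replicate 1. Mbnl1 exceeded Mbnl2 in each library, by 1.67 times in replicate 2 and 1.84 times in replicate 1. The third paralog, Mbnl3, was at 0.12 TPM in replicate 2 and 0.06 TPM in replicate 1, and so near the lower limit of detection.

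The CELF pair, the antagonists of the MBNL proteins, stood well below them. Celf2 (ENSMUSG00000002107.18, chromosome 2, 6539694 to 7509563, minus strand) was at 34.95 TPM in replicate 2 and 45.7 TPM in replicate 1. Celf1 (ENSMUSG00000005506.16, chromosome 2, 90940382 to 91019497, plus strand) was at 22.0 TPM in replicate 2 and 28.3 TPM in replicate 1. Celf2 was thus the more abundant CELF transcript in both libraries, by 1.59 times in replicate 2 and 1.61 times in replicate 1. The MBNL pair summed to 6.16 times the CELF pair in replicate 2 and 5.56 times in replicate 1. By kallisto the replicate 2 ratio was 5.62 and the replicate 1 ratio 5.26, so the order of the families was the same by both tools. Celf3, Celf4, Celf5 and Celf6, which are mainly neural, each lay at or below 0.16 TPM in either library.

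Rbfox1 (ENSMUSG00000008658.16, chromosome 16, 5885355 to 7411526, plus strand), one of the longest genes of the mouse genome, was at 100.04 TPM in replicate 2 and 139.7 TPM in replicate 1. Rbfox2 (ENSMUSG00000033565.18, chromosome 15, 77078990 to 77307004, minus strand), the broadly expressed paralog, was at 24.1 TPM in replicate 2 and 23.4 TPM in replicate 1. Rbfox1 was 4.15 times as abundant as Rbfox2 in replicate 2 and 5.98 times in replicate 1. The mean of Rbfox2 was 23.8 ± 0.523 TPM. The neuronal paralog Rbfox3 had 0 TPM in replicate 2 and 0.05 TPM in replicate 1.

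Rbm24 (ENSMUSG00000038132.6, chromosome 13, 46418434 to 46431095, plus strand) was at 77.2 TPM in replicate 2 and 93.9 TPM in replicate 1. Its paralog Rbm38 was at 100.94 TPM in replicate 2 and 65.8 TPM in replicate 1. The order of this pair differed between the libraries: Rbm38 was the higher in replicate 2 and Rbm24 in replicate 1. Rbm20 (ENSMUSG00000043639.15, chromosome 19, 53677306 to 53867080, plus strand), best known for its role on titin in the heart, was at 33.0 TPM in replicate 2 and 51.8 TPM in replicate 1.

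Srpk3 (ENSMUSG00000002007.5, chromosome X, 73774405 to 73778925, plus strand) was at 15.4 TPM in replicate 2 and 17.95 TPM in replicate 1. Its broadly expressed paralogs lay close below it by RSEM. Srpk1 was at 13.3 TPM in replicate 2 and 14.3 TPM in replicate 1. Srpk2 was at 10.4 TPM in replicate 2 and 13.6 TPM in replicate 1. Kallisto put Srpk3 at 17.2 TPM in replicate 2 and 24.0 TPM in replicate 1, below both paralogs. Srpk1 was there at 18.9 TPM in replicate 2 and 24.6 TPM in replicate 1. Srpk2 was at 25.4 TPM in replicate 2 and 31.3 TPM in replicate 1. The order of these genes thus depends on the tool. The MEF2 factors known to act on the Srpk3 gene were all present. Mef2c led them at 188.7 TPM in replicate 2 and 203.1 TPM in replicate 1, ahead of Mef2d at 76.1 TPM in replicate 2 and 77.0 TPM in replicate 1 and Mef2a at 38.2 TPM in replicate 2 and 51.6 TPM in replicate 1.

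Ptbp1 (ENSMUSG00000006498.16, chromosome 10, 79854427 to 79864771, plus strand), a repressor of muscle and neural exons in other cells, was the lowest of the 10. It was at 5.56 TPM in replicate 2 and 7.51 TPM in replicate 1, percentile 41.6 of the detected protein-coding genes. RSEM's own interval for replicate 2 ran from 6.01 to 9.50 TPM and so lay above the value itself, and its posterior mean there was 7.74 TPM. The Ptbp1 level was thus the least certain of the set, and it rested on 353 reads in replicate 2 and 370 in replicate 1. Its paralog Ptbp2 was at 7.40 TPM in replicate 2 and 9.31 TPM in replicate 1 by RSEM. Kallisto put Ptbp2 at 14.2 TPM in replicate 2 and 19.6 TPM in replicate 1, against 6.36 TPM in replicate 2 and 6.70 TPM in replicate 1 for Ptbp1, so the distance between them depends on the tool. Ptbp3 was at 2.88 TPM in replicate 2 and 2.50 TPM in replicate 1.

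Ranked by mean RSEM TPM, the order was Mbnl1, Mbnl2, Rbfox1, Rbm24, Rbm20, Celf2, Celf1, Rbfox2, Srpk3 and Ptbp1. Among the 9 neighbouring pairs, the values overlapped between libraries for 3: Mbnl2 with Rbfox1, Rbm20 with Celf2, and Celf1 with Rbfox2. The other 6 pairs did not overlap, by RSEM or by kallisto. Kallisto gave higher values than RSEM in both libraries for 8 of the 10, against 92.9% of the detected protein-coding genes, for which the median ratio was 1.34. Mbnl1 had 1.67 times its RSEM mean by kallisto, Celf2 1.66 times and Rbfox1 1.45 times, while Mbnl2 had 1.03 times and Ptbp1 0.999 times. The Mbnl1 excess over Mbnl2 was accordingly larger by kallisto, at 2.76 times in replicate 2 and 2.93 times in replicate 1.

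The spread between the libraries was described by the log2 ratio of CPM, the count scaled to library size, replicate 2 over replicate 1, after TMM scaling by edgeR. With 1 library against 1, no test of a difference was possible, and fold intervals cover counting error only. None of the 10 regulators was past 2-fold in either direction, against 4.64% of the 12969 genes tested. None was past 1.5-fold, against 13.7% of those genes. A count of 0 among 10 genes is close to these backgrounds. The median absolute log2 ratio was 0.19 for the 10 and 0.20 for all genes tested.

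Rbm20 lay farthest from 0, with a log2 ratio of -0.52, or 0.696-fold in replicate 2 relative to replicate 1 (95% counting interval 0.666 to 0.727). Rbfox1 followed at -0.33 and Celf2 at -0.29. At the other end, Rbfox2 was at 0.17 (1.12-fold, 1.06 to 1.19) and Mbnl2 at 0.00 (1.00-fold, 0.975 to 1.03). The counting interval of Ptbp1 was the widest, from 0.806-fold to 1.08-fold, and with that of Mbnl2 the only one to span equality.

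Of the 10 log2 ratios, 8 were below 0, against 50.2% of all genes tested. Scaled by the spike-in totals instead, the median of all genes moved to -0.22 and all 10 ratios were below 0, Rbfox2 at -0.05 and Mbnl2 at -0.22. Relative to the median of all genes, 8 of the 10 were below it under that scaling too. Rbm20 was at -0.75 under the spike-in scaling, past 1.5-fold. Mbnl2, close to 0, was also below it, by less than 0.01, with TMM over nuclear protein-coding genes and with the stricter filter of 500 summed counts.

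**Figure D2:**
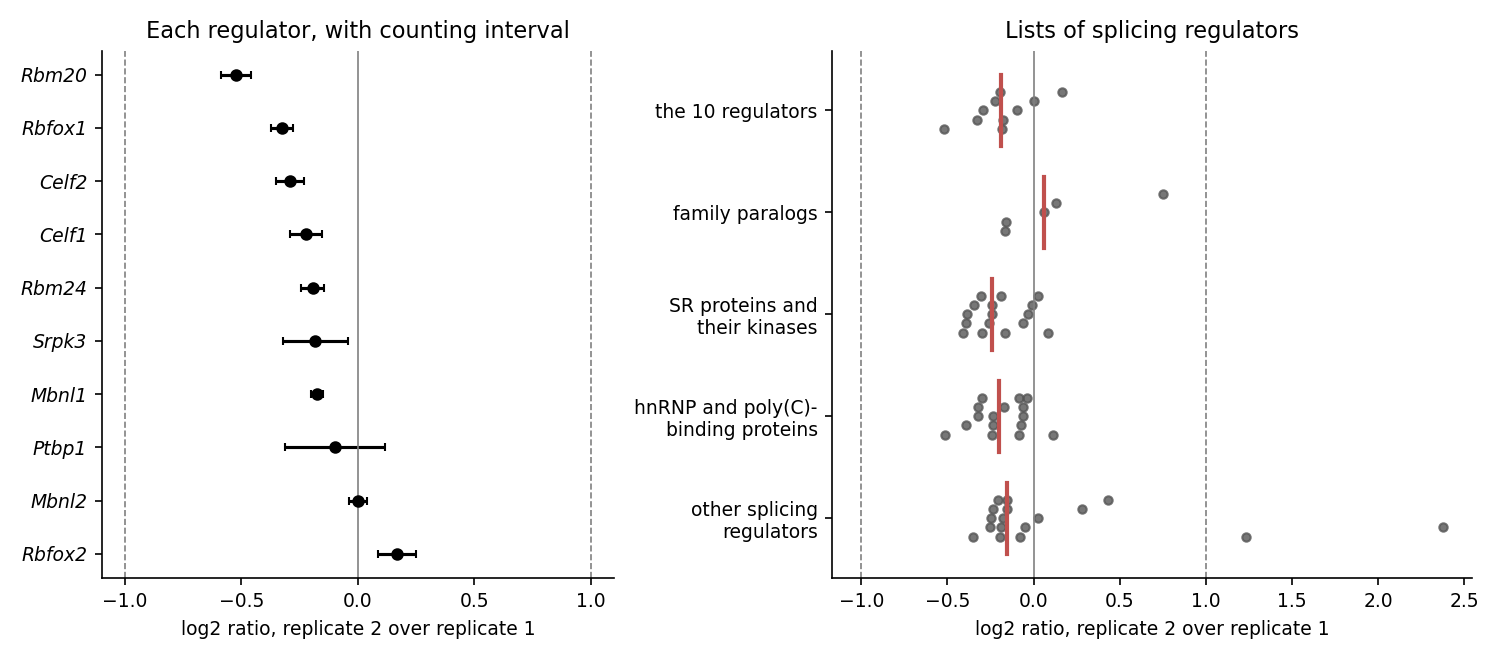
Log2 ratio of CPM, replicate 2 over replicate 1, for each regulator with its 95% counting interval (left) and for the tested genes of each list of splicing regulators (right, points; red bars are list medians). Dashed lines mark 2-fold; none of the 10 regulators lies past them, and Raver2 and Khdrbs3 are the 2 points past 2-fold among the other lists.

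Cell type markers also moved between the libraries. All 10 slow fibre genes were past 2-fold higher in replicate 2, summing to 2596 TPM there and 507 TPM in replicate 1. Markers of satellite cells, the muscle stem cells, and of myogenic cells summed to 18.4 TPM in replicate 2 and 37.1 TPM in replicate 1. Of the 7 tested, 6 had ratios below 0. Only 2 of the 8, Myod1 and Cdh15, singled out later, reached 1 TPM in both libraries. Myod1 was at 6.51 TPM in replicate 2 and 19.91 TPM in replicate 1. The other genes of this list were at or below 1.1 TPM in either library. These sums thus rest mainly on Myod1 and Cdh15 and are not read as a level of satellite cells. Endothelial markers summed to 55.3 TPM in replicate 2 and 77.7 TPM in replicate 1, with 7 of 8 ratios below 0. Fibro-adipogenic markers summed to 468 TPM in replicate 2 and 432 TPM in replicate 1, but 4 of the 8 were past 2-fold higher in replicate 2 by CPM, and the median log2 ratio was 0.90. All 7 tested adipocyte markers had ratios above 0, with a median of 0.43. The fast fibre list had a median of 0.12, with 1 of 10 genes past 2-fold higher in replicate 2. Their part in the ratios of the 10 regulators was not tested.

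Other lists of splicing regulators stood beside the 10. Of 17 SR proteins and their kinases, 16 reached at least 1 TPM in each library, and 14 of the 16 tested had ratios below 0, with a median log2 ratio of -0.24. Srsf5 was the highest of them, at 39.05 TPM in replicate 2 and 57.4 TPM in replicate 1, before Srsf2 at 29.8 TPM in replicate 2 and 39.2 TPM in replicate 1 and Srsf1 at 23.5 TPM in replicate 2 and 29.8 TPM in replicate 1. Srsf12 had no counts in either library. Among 16 hnRNP and poly(C)-binding proteins, 15 had ratios below 0, with a median of -0.20. Pcbp2, a poly(C)-binding protein, was at 176.5 TPM in replicate 2 and 211.2 TPM in replicate 1, Hnrnpa2b1 at 135.3 TPM in replicate 2 and 158.4 TPM in replicate 1, and Hnrnpk at 113.9 TPM in replicate 2 and 126.4 TPM in replicate 1. No SR or hnRNP gene was past 2-fold. Mbnl1 thus stood above every SR and hnRNP gene listed in both libraries.

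Of 20 other splicing regulators, 15 reached at least 1 TPM in each library and 12 of 17 tested had ratios below 0. Qk, the quaking protein, was at 119.9 TPM in replicate 2 and 98.99 TPM in replicate 1, with Tardbp at 49.2 TPM in replicate 2 and 55.9 TPM in replicate 1. Raver2, a PTBP1-binding protein, was 5.36-fold higher in replicate 2 by CPM, at 2.25 TPM there and 0.46 TPM in replicate 1. Khdrbs3 was 2.37-fold higher in replicate 2 by CPM, from 402 reads there and 166 in replicate 1. Its TPM, 9.72 in replicate 2 and 6.15 in replicate 1, differed by less than 2-fold. Esrp1, a regulator of epithelial cells, had no counts in either library. The family paralogs had 5 of 11 genes at or above 1 TPM and ratios from -0.16 to 0.75, the highest being that of Rbm38.

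RSEM placed the same transcript first in both libraries for 9 of the 10 regulators. The exception was Rbm20, with Rbm20-201 first in replicate 2 and Rbm20-203 first in replicate 1. By kallisto it was also 9, with Celf1 as the exception. For 7 of the 10 the leading transcript was the same by both tools in both libraries. The share over all genes was not computed, so these counts are not read as a trait of the regulators. The depth of a gene does not carry over to its transcripts: each gene's expected count was whole within 0.005 in all 20 values, while its division among transcripts is estimated.

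Mbnl1 was spread over many of its 25 transcripts. Mbnl1-201 (5655 bases) led with 20.7% of the gene's TPM in replicate 2 and 22.2% in replicate 1, and by kallisto with 19.0% in replicate 2 and 19.1% in replicate 1. Mbnl1-214 (5151 bases), which holds the 54-base exon, took 15.5% in both by RSEM. Most other regulators were more concentrated. Rbm24-201 took 82.9% of Rbm24 TPM in replicate 2 and 87.1% in replicate 1, and Srpk3-201 took 74.4% in replicate 2 and 78.7% in replicate 1 of Srpk3 TPM. Ptbp1-216 led Ptbp1 with 39.6% in replicate 2 and 27.5% in replicate 1, a mean of 33.5%. That mean was 62.9% by kallisto and 18.1% by RSEM's posterior means, so the share is poorly fixed.

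A protein-coding transcript of 5470 bases led Celf2 in both libraries by both tools, with 40.1% in replicate 2 and 45.3% in replicate 1 by RSEM. Celf1 had no dominant transcript: Celf1-201 led by RSEM with 21.5% in replicate 2 and 27.6% in replicate 1. By kallisto Celf1-201 took 18.3% in replicate 2 and 37.7% in replicate 1. Rbm20 was divided among its 3 annotated transcripts, of which Rbm20-201 and Rbm20-202 are incomplete and only Rbm20-203 is complete. Rbm20-203 took 31.3% in replicate 2 and 36.4% in replicate 1 by RSEM. Rbm20-202, of only 465 bases, took 33.5% in replicate 2 and 32.6% in replicate 1. By kallisto Rbm20-203 took 42.05% in replicate 2 and 44.6% in replicate 1. Rbm20-202 took 18.6% in replicate 2 and 21.3% in replicate 1 by that tool, so the near-equal division was by RSEM only.

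Not all of this RNA is annotated as protein-coding. Rbfox1 had 100% of its TPM on protein-coding transcripts in both libraries by both tools. Of its 8 annotated transcripts 7 are protein-coding and none is a decay or retained-intron transcript, so the annotation largely sets this share. Rbm20-201, annotated as a target of nonsense-mediated decay, the pathway that degrades messages with early stop codons, held 35.2% of Rbm20 TPM in replicate 2 and 31.1% in replicate 1. With kallisto it held 39.4% in replicate 2 and 34.1% in replicate 1, so both tools gave about the same share. Retained-intron transcripts of Srpk3 held 25.6% in replicate 2 and 21.3% in replicate 1 by RSEM. By kallisto they held 18.7% in replicate 2 and 21.7% in replicate 1, but on different transcripts. Srpk3-204 took 21.8% in replicate 2 and 8.75% in replicate 1 by RSEM, and 0% in both by kallisto. Srpk3-203 took 14.57% in replicate 2 and 14.25% in replicate 1 by kallisto, against 0% and 5.68% by RSEM. Retained-intron transcripts of Ptbp1 held 24.6% in replicate 2 and 23.9% in replicate 1 by RSEM. Kallisto gave them 13.46% in replicate 2 and 14.01% in replicate 1.

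For other regulators, too, the tools gave different shares. Celf2-228, the decay-annotated transcript of Celf2, took 26.0% in replicate 2 and 24.0% in replicate 1 by RSEM, but 5.89% in replicate 2 and close to 0 in replicate 1 by kallisto. Kallisto placed 24.1% in replicate 2 and 21.3% in replicate 1 on another protein-coding transcript, of 630 bases, to which RSEM gave 0 TPM. Mbnl2-205, a processed transcript with no annotated reading frame, took 32.3% in replicate 2 and 33.4% in replicate 1 by RSEM, against 3.79% in replicate 2 and 8.84% in replicate 1 by kallisto. The difference between tools was thus far larger than that between libraries for these transcripts.

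**Figure D3:**
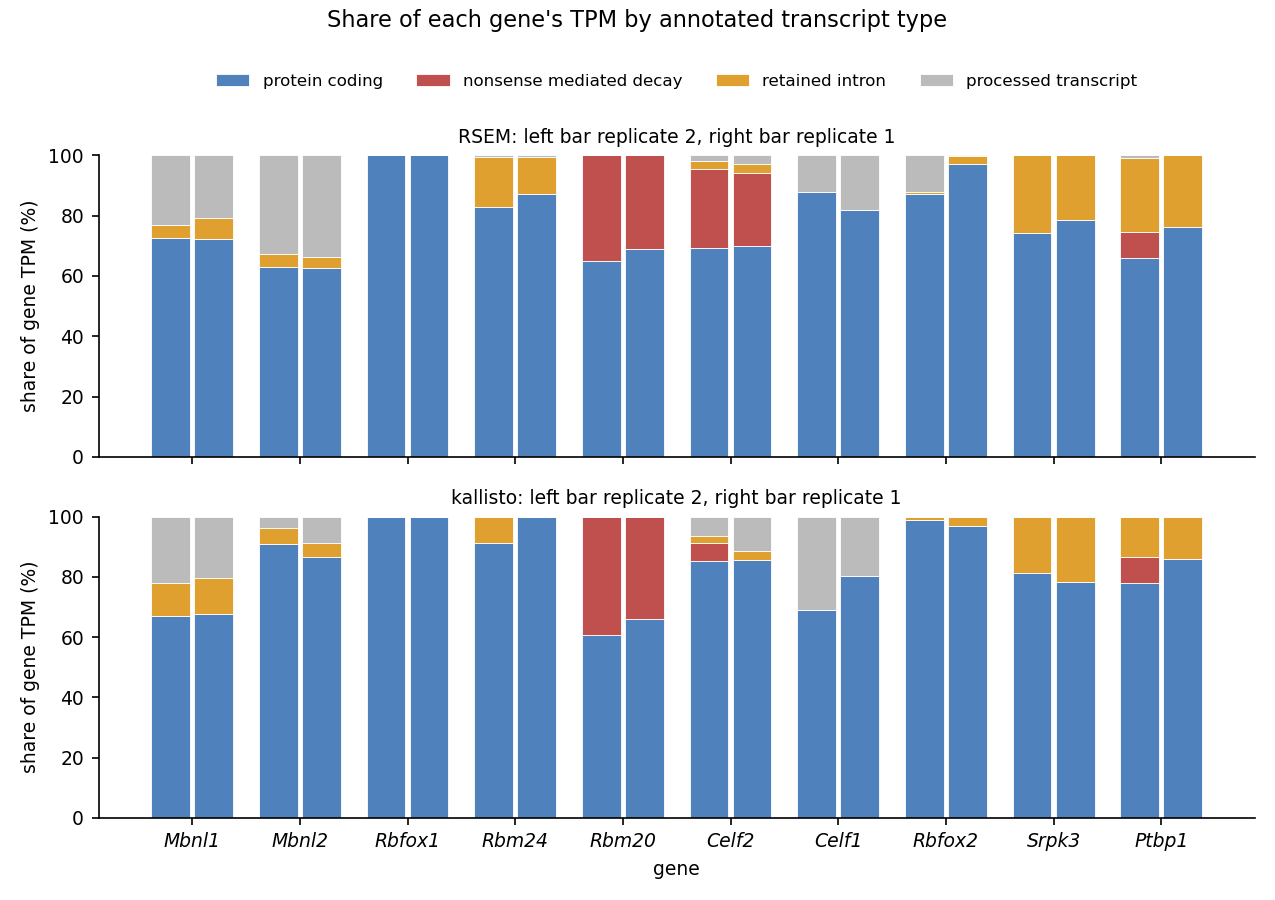
Share of each regulator's TPM (%) by annotated transcript type, from RSEM (top) and kallisto (bottom), with replicate 2 as the left bar and replicate 1 as the right bar of each pair. Rbfox1, with 7 of its 8 transcripts annotated as protein-coding, lies wholly on that type. Rbm20 holds 35.2% in replicate 2 and 31.1% in replicate 1 on its decay-annotated transcript by RSEM.

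Exon inclusion was taken as the percent of TPM on transcripts that hold an exon, among those that hold it or splice across it. An exon was called alternative where its mean inclusion lay between 5% and 95% by either tool, with at least 1 TPM on such transcripts. These values follow whole annotated transcripts, not junction reads. In 7 of the 10 regulators, 23 coding exons were alternative. Between libraries 20 of the 23 lay within 5 points of each other by RSEM, with a median difference of 1.28 points. Some exons, such as the 36-base exon of Mbnl2, qualified by kallisto alone. Their RSEM values lay near an end of the scale, which leaves little room for a difference between libraries. The count and the median therefore overstate how well RSEM fixed the inclusion of these exons. Between tools 16 of the 23 lay within 10 points, with a median of 5.34.

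**Figure D4:**
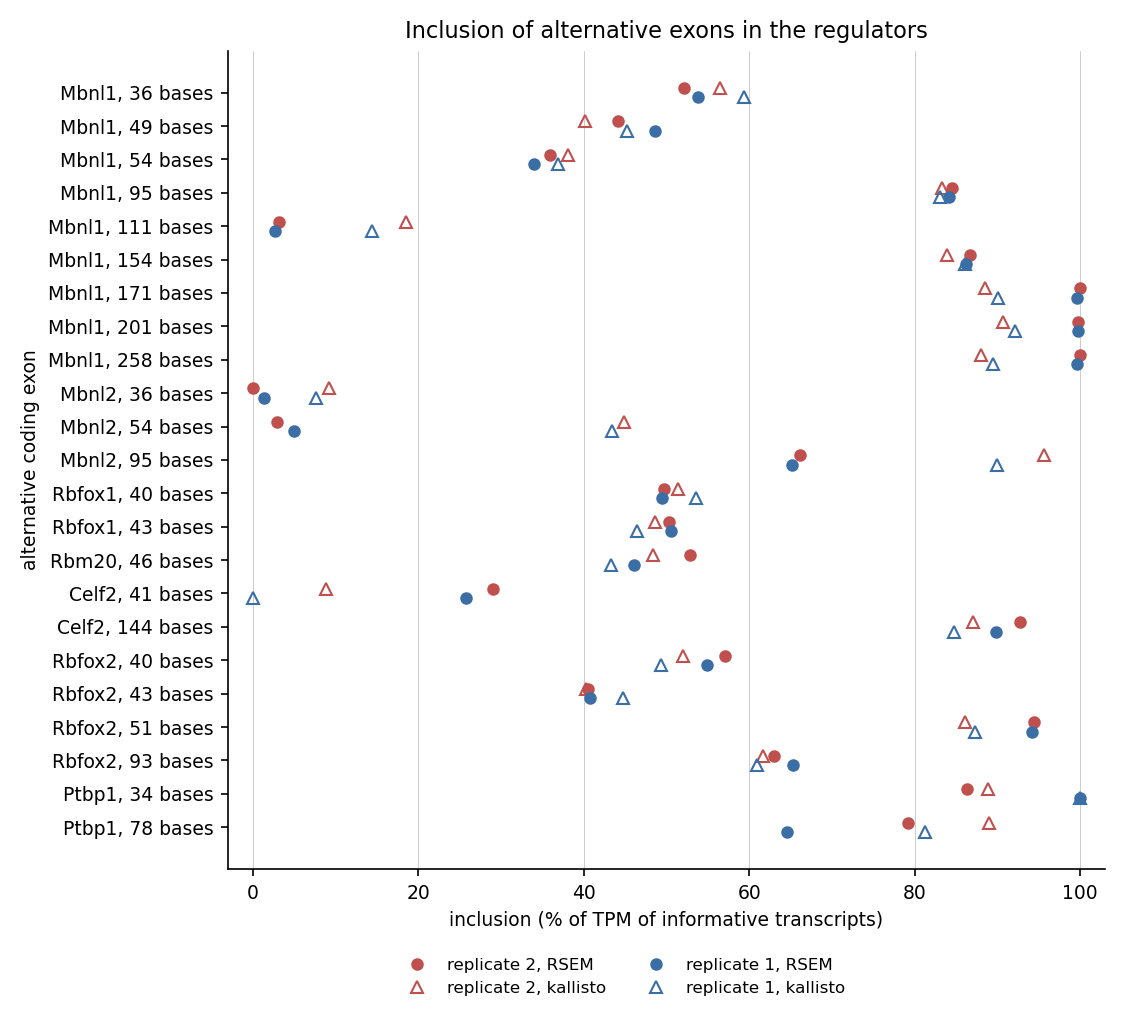
Inclusion (%) of the 23 alternative coding exons of the regulators in replicate 2 (red) and replicate 1 (blue), by RSEM (filled circles) and kallisto (open triangles). The 40-base and 43-base exons of Rbfox1 lie near each other, at 49.6% and 50.4% in replicate 2 by RSEM, while the tools part for the 54-base exon of Mbnl2.

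The 54-base exon of Mbnl1, which is known to send the protein to the nucleus, was included at 35.9% in replicate 2 and 33.99% in replicate 1. Kallisto gave 38.1% in replicate 2 and 36.9% in replicate 1. The skipped form thus prevailed in both libraries by both tools. The 36-base exon of Mbnl1, printed above with its TGCATG letters, was included at 52.1% in replicate 2 and 53.8% in replicate 1, and the 95-base exon at 84.6% in replicate 2 and 84.2% in replicate 1. Transcripts with the 36-base and the 95-base exon but without the 54-base exon made up 47.7% of the informative Mbnl1 TPM in replicate 2 and 48.2% in replicate 1. Those with the 54-base and the 95-base exon but without the 36-base exon made up 24.5% in replicate 2 and 23.8% in replicate 1. The 1 annotated transcript with all 3 exons had 0% in both libraries by both tools.

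The Mbnl2 counterpart of the 54-base exon, 85.2% identical, could not be settled. RSEM gave an inclusion of 2.88% in replicate 2 and 4.97% in replicate 1, while kallisto gave 44.9% in replicate 2 and 43.4% in replicate 1. The value turned on Mbnl2-201, which RSEM put at 2.39 TPM in replicate 2 and 2.73 TPM in replicate 1 and kallisto at 53.0 TPM in replicate 2 and 58.0 TPM in replicate 1. The 36-base exon of Mbnl2 was low by both tools, at 0% in replicate 2 and 1.28% in replicate 1 by RSEM and at 9.14% in replicate 2 and 7.65% in replicate 1 by kallisto. It was below the Mbnl1 exon of the same length in both libraries by both tools. The 95-base exon of Mbnl2 was at 66.1% in replicate 2 and 65.2% in replicate 1 by RSEM. Kallisto gave 95.6% in replicate 2 and 90.0% in replicate 1. The only annotated transcript that splices across it is Mbnl2-205, which has no annotated reading frame. Every protein-coding transcript informative for this exon holds it, so these values do not describe skipping in coding transcripts.

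The brain-type and muscle-type exons of Rbfox1 were of nearly equal inclusion, and no annotated transcript that spans both exons holds both or lacks both. The 40-base exon was at 49.6% in replicate 2 and 49.5% in replicate 1, and the 43-base exon at 50.4% in replicate 2 and 50.5% in replicate 1. Kallisto gave 51.4% in replicate 2 and 53.6% in replicate 1 for the 40-base exon and 48.6% in replicate 2 and 46.4% in replicate 1 for the 43-base exon. Which exon led therefore differed between the tools. The 40-base exon was carried mainly by Rbfox1-201 (3061 bases) and the 43-base exon by Rbfox1-203 (1407 bases). Of the last exon of Rbfox1-201, 1713 bases are absent from Rbfox1-203, so these percents compare transcripts that differ in much more than the 2 exons.

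In Rbfox2 the 40-base exon was at 57.1% in replicate 2 and 54.9% in replicate 1, and the 43-base exon at 40.5% in replicate 2 and 40.8% in replicate 1. The 40-base form was above the 43-base form in both libraries by both tools, since kallisto gave 52.0% in replicate 2 and 49.4% in replicate 1 against 40.3% in replicate 2 and 44.7% in replicate 1. The carriers differ here as well: Rbfox2-203 has 6573 bases and Rbfox2-207, with the 43-base exon, has 1041. The 93-base exon of Rbfox2 was included at 63.0% in replicate 2 and 65.2% in replicate 1 by RSEM. All TPM that skips it lay on Rbfox2-207, the transcript with the 43-base exon, so this is not a separate measurement.

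The 46-base exon of Rbm20 lies in its decay-annotated transcript, Rbm20-201, which is annotated as incomplete. It was included at 52.9% in replicate 2 and 46.1% in replicate 1 by RSEM, and at 48.4% in replicate 2 and 43.3% in replicate 1 by kallisto. The 34-base exon of Ptbp1, whose skipping is known to give a message for decay, was at 86.4% in replicate 2 and 100% in replicate 1. Its 78-base exon was at 79.2% in replicate 2 and 64.6% in replicate 1 by RSEM. At 14.6 points, this was the largest difference between libraries among the 23 exons by RSEM. The main transcript with this exon, Ptbp1-216, was at 2.20 TPM in replicate 2 and 2.06 TPM in replicate 1 by RSEM. Kallisto put Ptbp1-216 higher, at 3.64 TPM in replicate 2 and 4.60 TPM in replicate 1. It put Ptbp1-202, which skips the exon, lower, so the inclusion depends on the tool. Only 3.60 TPM in replicate 2 and 3.84 TPM in replicate 1 were informative for both exons of Ptbp1 by RSEM. The matching 34-base exon of Ptbp2, a known target of PTBP1, was at 88.5% in replicate 2 and 75.2% in replicate 1 by RSEM. The skipped form lay there mainly on an incomplete, decay-annotated transcript of 576 bases. RSEM put that transcript at 0.64 TPM in replicate 2 and 1.73 TPM in replicate 1. Kallisto put it at 0 TPM in replicate 2 and 2.24 TPM in replicate 1. The Ptbp2 inclusion thus rests on low levels that differ between the tools.

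Known targets of the regulators were listed with their leading transcripts. Of 29 target and MEF2 genes, 26 had the same leading transcript in both libraries by RSEM, 27 by kallisto, and 21 by both tools in both libraries. Atp2a1, the calcium pump of fast fibres and an MBNL target, had 99.8% of its TPM on Atp2a1-201 in replicate 2 and 99.9% in replicate 1. Only 2 Atp2a1 transcripts are annotated, and this share is not read as an outcome of MBNL. Capn3, the muscle calpain, had 97.0% on Capn3-202 in replicate 2 and 95.1% in replicate 1. Titin, the classic RBM20 target, was at 2582 TPM in replicate 2 and 2627 TPM in replicate 1, and Ttn-215 led it with 29.8% in replicate 2 and 30.4% in replicate 1 by RSEM, while kallisto put Ttn-205 first. Tnnt3, the fast troponin T, had a different leading transcript in each library and by each tool.

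**Figure D5:**
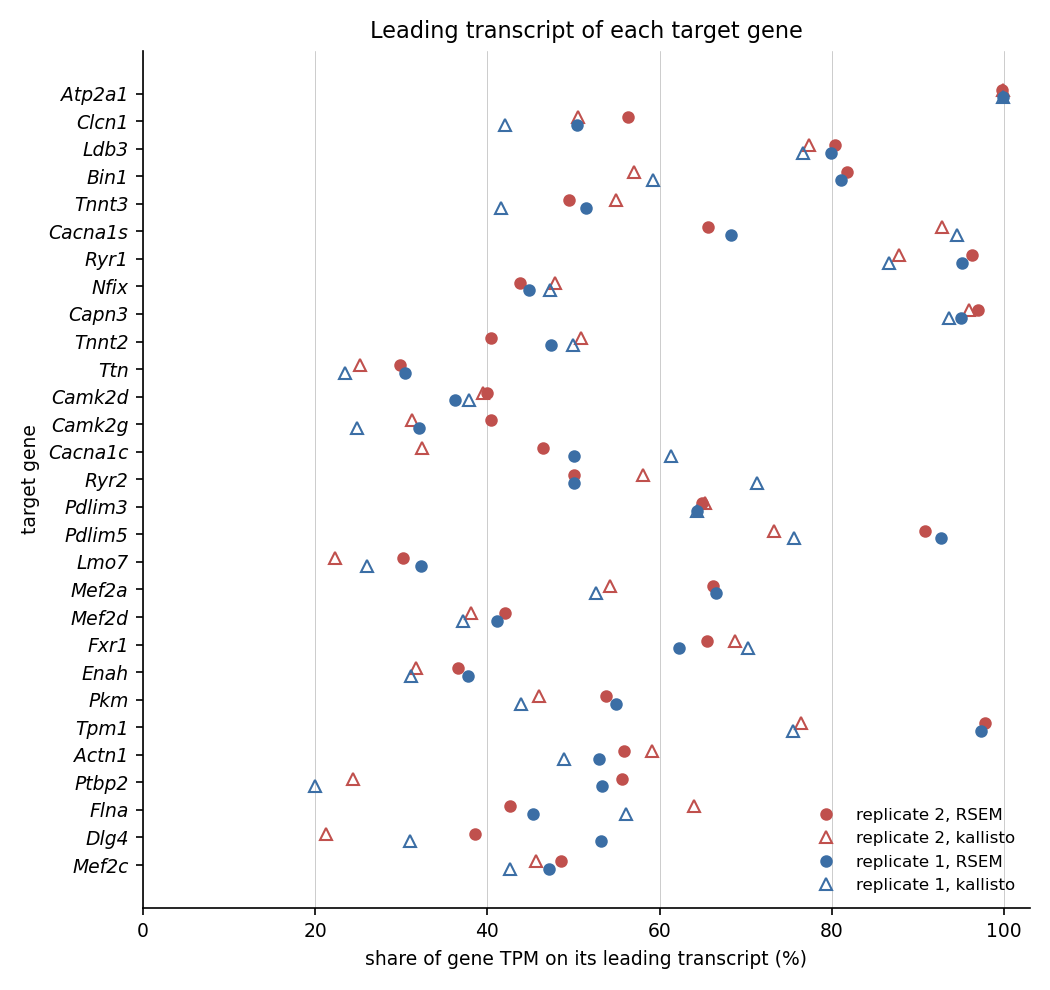
Share of each target gene's TPM (%) on the transcript that leads it in that library and by that tool, for replicate 2 (red) and replicate 1 (blue), by RSEM (filled circles) and kallisto (open triangles). Atp2a1 lies at the top of the scale, at 99.8% in replicate 2 and 99.9% in replicate 1, and Ttn near 30%, at 29.8% in replicate 2 and 30.4% in replicate 1 by RSEM.

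Some target exons were singled out after their values were seen. Clcn1, the muscle chloride channel that is mis-spliced when MBNL is lost, included an alternative 79-base exon at 2.26% in replicate 2 and 1.49% in replicate 1. Kallisto gave 6.75% in replicate 2 and 7.63% in replicate 1, so the skipped form was the main one by both tools. A 123-base exon of Nfix, another MBNL target, was at 52.3% in replicate 2 and 52.5% in replicate 1. Among RBFOX targets, an 81-base exon of Fxr1 was at 66.0% in replicate 2 and 63.0% in replicate 1. A 21-base exon of Mef2d was at 15.5% in replicate 2 and 16.0% in replicate 1. A 24-base exon of Mef2a was at 74.5% in replicate 2 and 76.0% in replicate 1. The Nfix, Fxr1, Mef2d and Mef2a values are given by RSEM alone. Over the 205 alternative target exons the tools differed by a median of 11.73 points. The upstream 167-base exon of Pkm is the one of the M1 enzyme of adult muscle. RSEM put it at 54.5% in replicate 2 and 55.8% in replicate 1. Kallisto put it at 47.9% in replicate 2 and 49.5% in replicate 1. These percents compare Pkm-202 (2041 bases) with Pkm-201 (2432 bases), which holds another 167-base exon instead. The 2 transcripts thus differ in more than that exon. Over all targets, with exons called alternative by the same rule and so with the same limit, 131 of 205 in 22 genes lay within 5 points between libraries. Between tools, 97 lay within 10 points.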

How the data were processed

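Both libraries are total RNA-seq, and values are from mm10 with GENCODE M21, per the notes deposited with them. Aligner and tool versions were not given in the sources used here. Expected counts and TPM per gene and transcript were deposited with RSEM's column names, per the file headers, the TPM over all rows with spike-ins. Estimated counts and TPM per transcript with kallisto's column names, also deposited, were summed per gene. Bounds of RSEM's intervals were deposited beside them.

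Expected counts of genes summed to 43722892 in replicate 2 and 38654555 in replicate 1, and those of the 10 regulators ran from 353 to 25152. Expected counts were rounded for edgeR 4.0.16 (R 4.3.3), with TMM, log2 CPM with prior count 2, and a filter of at least 50 summed counts per gene. Fold intervals are exact conditional binomial intervals at 95%, for counting error only. The scaling step was tested on simulated data. Exons are internal, wholly coding in at least 1 transcript and spliced across by another. DESeq2 1.42.0 gave alternative size factors; Python 3.11.15 did the rest.

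The regulators and lists were chosen with earlier results of these data known. Named were all regulators and paralogs, of each other regulator list the 3 of highest mean TPM, those without counts and those past 2-fold, and targets with leading transcripts. Transcripts with at least 10% of a regulator's TPM could be named, though not all are, besides transcripts that carry a described exon and genes or exons said to be singled out later. A gene that this rule names is not reported here. Alternatives were other scalings, filters, prior counts, expression estimates, transcript sets and leaving out each library.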

Additional observations from a re-analysis of the deposited data

How the results depend on the processing

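All 10 regulators stayed at or above 1 TPM under every level alternative run, also at 5 TPM, and none passed 2-fold under any scaling, filter, prior count or tool. Their summed level, 742 TPM in the mean, was 1028 TPM by kallisto and 1605 TPM when rescaled over nuclear protein-coding genes, and from 663.3 to 819.8 TPM with either library left out. The cause of the kallisto value was not tested, and the rescaled one follows from the smaller total it is taken over. Genes past 2-fold numbered 602, against 2712 with no filter on low counts, 194 when 500 summed counts were required, and 1776 at 1.5-fold; the first 2 test other numbers of genes, 23688 and 7870. The count of regulators with the same leading transcript moved within 1.5 times. Of 23 exon inclusions, 21 moved by more than the spread between libraries with kallisto, 4 with posterior means and 13 with complete protein-coding transcripts only, alternatives chosen after seeing the data; the cause was not tested. No paired analysis was possible because there is only 1 group. Depth limits Ptbp1 most, at 353 and 370 reads.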
